A study of Mus musculus with 2 samples.

Results

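Iron enters a macrophage (MØ) bound to transferrin, as heme or haemoglobin, or inside engulfed cells, and is stored in ferritin or exported by ferroportin. The 10 genes followed here cover these steps: Tfrc, Trf, Slc11a1, Cd163 and Slc48a1 for uptake and movement, Hmox1 and Blvrb for heme breakdown, Fth1 and Ftl1 for storage and Slc40a1 for export. They were taken by symbol from the 27998 genes of the count tables, each symbol matched 1 row, and all 10 had counts in both libraries. Adipose tissue MØs are known to take up iron and to pass it back to neighbouring cells, and resident MØs rich in CD163 and heme-handling genes are the ones usually named in that role.

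The transcripts were counted in single live CD45+ cells sorted from the perigonadal visceral adipose tissue (VAT) of mice, with 1 library from an obese group and 1 from a group under caloric restriction (CR). By the study's methods both groups were male C57BL/6J mice that received a diet high in fat with added cholesterol for months, together with an antisense oligonucleotide against the LDL receptor, and the CR group was then held for some weeks to part of its former intake of the same diet. The diet label of the CR sample reads "Life-long caloric restriction", which goes against that description, and the number of mice behind each library was not given in the sources used here. Both groups therefore share the diet, the knockdown of the LDL receptor and raised blood lipids, and no lean library was analysed here. With 1 library a group, diet and library cannot be told apart and no test of the diet was possible, so each value below describes these libraries and its interval covers counting error alone.

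After filtering, 5262 of 5795 obese barcodes and 2987 of 3562 CR barcodes were kept, with medians of 6741 and 4802 unique molecular identifiers (UMIs) a cell, and 28 barcode sequences occurred in both libraries. Cells were assigned to classes by marker genes that include none of the 10. Resident MØs (Lyve1, Folr2, Cbr2 and others) numbered 348 in the obese and 53 in the CR library. C1q MØs (high in the C1q genes, low in the other lists) numbered 966 and 145. Lipid-associated MØs (Gpnmb, Trem2, Mmp12 and others) numbered 838 and 146, and cycling MØs 177 and 61. MØs high in the Fc receptor gene Fcgr4, which the study calls Phagocytic MØs, were split by MHC class II genes into 65 and 32 positive cells and 180 and 512 low cells. Classical monocytes numbered 243 and 72, patrolling monocytes 142 and 106 and haemoglobin-rich cells 128 and 75. Without the filter on mitochondrial share and UMIs, Resident MØs numbered 374 and 102 and lipid-associated MØs 1019 and 322. That filter thus removed a larger share of these classes in the CR than in the obese library. The cut between lipid-associated and other MØs ran through a continuum, with 262 of 2574 obese and 64 of 949 CR candidates within 20% of it, 159 and 25 of the same cells lay that close to the Resident cut, and 4 and 0 cells lay that close to the haemoglobin cut. Stromal cells, which a CD45 sort should remove, made up 2.53% of the kept obese and 18.2% of the kept CR cells, and the median fibroblast score of the MØ and monocyte classes was 0 in the obese library and 1.66 to 3.09 UMIs per 10000 in the CR library. Ptprc, which encodes CD45, was found in 60.3% to 96.9% of the cells of the MØ and monocyte classes.

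Iron regulates several of these genes after transcription, through a short hairpin in the transcript called the iron-responsive element. Iron regulatory proteins that hold such a hairpin in the 5′ untranslated region (UTR) block translation, and those that hold hairpins in the 3′ UTR protect the transcript from decay. The counts below are therefore a readout of transcript only, and the ferritin and ferroportin genes are those for which transcript and protein can part ways. A search of the annotated transcripts of all 10 genes for the hairpin's fixed letters (a C, 5 bases, the loop CAGTGN and 5 bases that pair with the first 5, on the transcript's own strand) found it in 4 of them. The same pattern occurred in 28 of 20873 genes with a 5′ UTR (0.134%) and in 127 of 21669 genes with a 3′ UTR (0.586%), so a match is a description of letters and no proof of a working element. The sequences are shown because they mark which members are open to this control. Each is 30 bases, read 5′ to 3′ on the transcript's strand from the GRCm38 annotation, with the bulged C and the loop in capitals.
Fth1, 5′ UTR, chr19:9982731-9982760, plus strand: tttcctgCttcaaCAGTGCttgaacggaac
Ftl1, 5′ UTR, chr7:45459779-45459808, minus strand: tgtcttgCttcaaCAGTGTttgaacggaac
Slc40a1, 5′ UTR, chr1:45925465-45925494, minus strand: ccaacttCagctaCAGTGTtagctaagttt
Tfrc, 3′ UTR, chr16:32631218-32631247, plus strand: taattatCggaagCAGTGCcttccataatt
Tfrc, 3′ UTR, chr16:32631597-32631626, plus strand: acattatCgggagCAGTGTcttccataatg
Tfrc, 3′ UTR, chr16:32631662-32631691, plus strand: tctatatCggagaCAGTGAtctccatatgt
Tfrc, 3′ UTR, chr16:32631709-32631738, plus strand: taattatCgggaaCAGTGTttcccataatt

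Levels are given as CPM, the UMIs of a gene for every 1000000 UMIs summed over a class, with the exact 95% Poisson interval in brackets. Shares of cells carry exact 95% binomial intervals (Clopper-Pearson), and gene positions are those of GRCm38. The reads come from the 3′ end of transcripts, so 1 UMI stands for 1 transcript end whatever the gene's length. The 10 genes spanned a wide range of levels. Ftl1 and Fth1 lay between 1522 and 29296 CPM over all classes named above, Trf, Hmox1, Blvrb, Slc11a1 and Slc48a1 between 40.4 and 1401 CPM in the MØ classes, and Tfrc, Cd163 and Slc40a1 under 10 CPM in most classes.

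**Figure D1:**
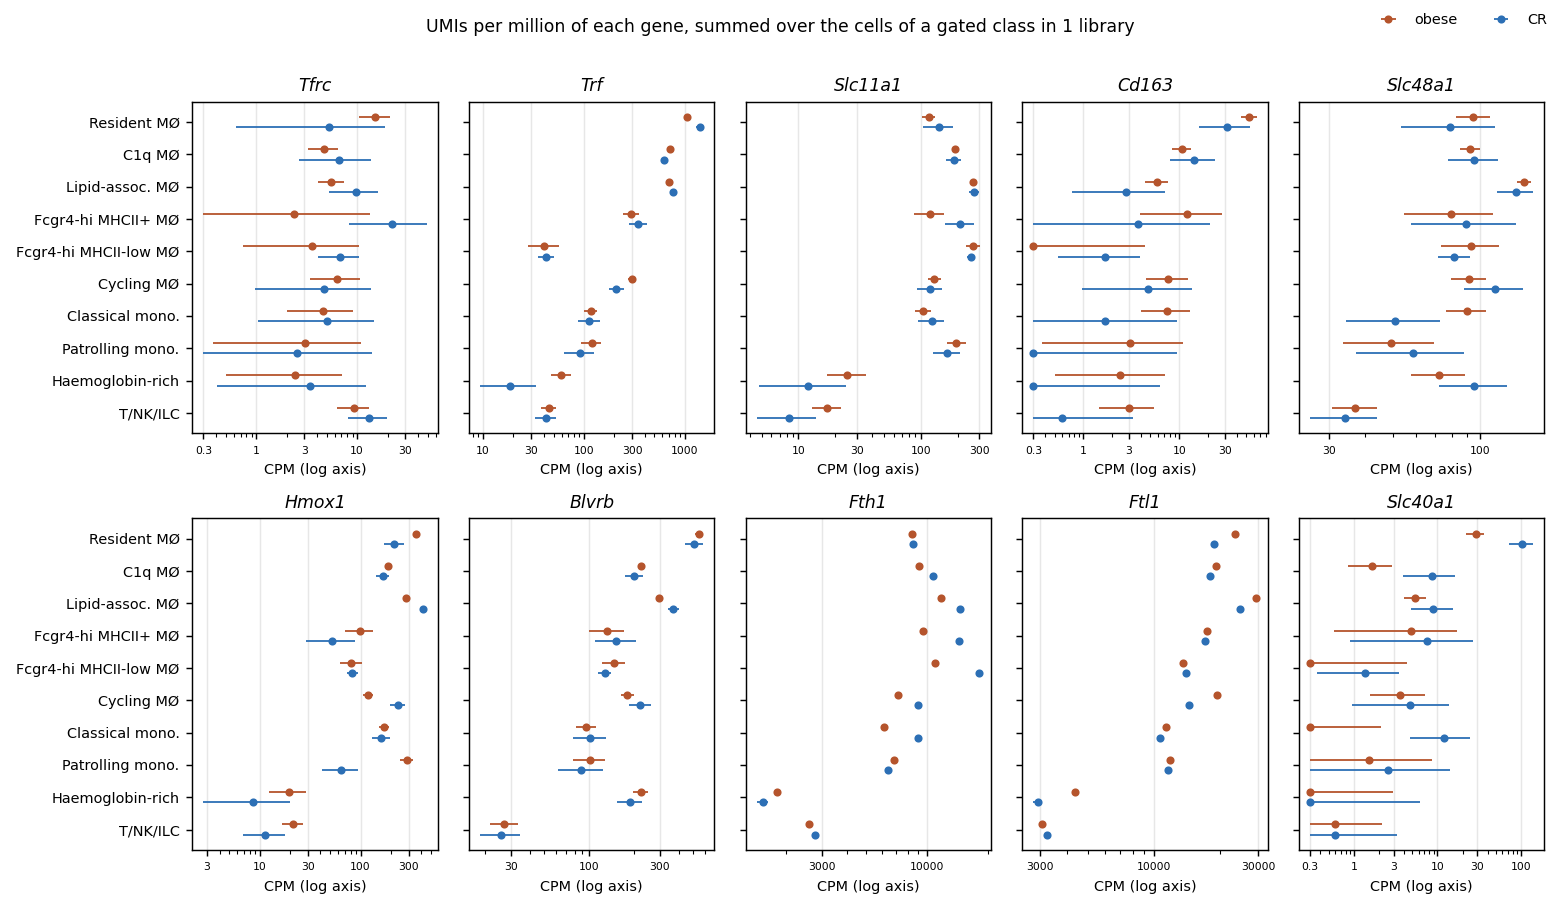
Level of each of the 10 genes (CPM, log axis) in each class of the obese and CR libraries, with points at the summed level, bars for the exact 95% Poisson interval and values and interval ends below 0.3 CPM drawn at 0.3 CPM. Trf and Slc40a1 are highest in Resident MØs of both libraries, while Slc11a1 is highest in the lipid-associated and the Fcgr4-high MHCII-low MØs.

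Tfrc (chr16:32608920-32632794), the receptor that takes transferrin-bound iron into cells, was nearly absent from these counts. It had 232 UMIs in all kept obese cells and 114 in all kept CR cells. Its highest level in the obese MØ and monocyte classes was 15 CPM (10.4 to 21.0) in Resident MØs, where 34 UMIs were counted. In the CR classes of at least 50 cells its highest level was 9.67 CPM (5.29 to 16.2) in lipid-associated MØs, and the 32 CR Fcgr4-high MHCII-positive MØs had 22.4 CPM (8.22 to 48.7) from 6 UMIs. T, NK and innate lymphoid cells (T/NK/ILC) had 9.31 (6.32 to 13.2) and 13.1 CPM (8.21 to 19.8), so MØs did not stand out from lymphocytes for this gene. Tfrc reached the level needed for a ratio (20 UMIs in both libraries together and 50 CPM in 1 of them) in no class.

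Trf (chr9:103204001-103230444), which encodes transferrin itself, had the widest range over MØ classes among the members with at least 20 CPM in each of them. Resident MØs had 1048 CPM (1006 to 1091) in the obese and 1401 CPM (1285 to 1525) in the CR library, and all 53 CR Resident MØs held at least 1 Trf UMI. The ratio between libraries was 0.42 (0.28 to 0.55) and turned to -0.25 with classes from clusters. C1q MØs followed with 715 (696 to 735) and 628 CPM (581 to 678), and lipid-associated MØs had 693 (676 to 711) and 758 CPM (714 to 804). Fcgr4-high MHCII-low MØs lay at the other end with 40.4 (28.0 to 56.5) and 42.5 CPM (35.4 to 50.6), which overlaps the 44.7 (37.8 to 52.5) and 41.7 CPM (32.5 to 52.7) of T/NK/ILC cells. The step from Resident to Fcgr4-high MHCII-low MØs was therefore 25.9-fold in the obese and 32.9-fold in the CR library. Against all other MØs together, the log2 ratio of the Fcgr4-high MHCII-low class was -3.93 in the obese (interval of the count ratio -4.62 to -3.61) and -3.82 in the CR library (-4.24 to -3.71).

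The Fcgr4-high cells that kept MHC class II had intermediate Trf levels, 292 (243 to 349) and 347 CPM (280 to 425). Classical monocytes had 116 (101 to 133) and 113 CPM (87.9 to 144), and patrolling monocytes 119 (94.2 to 149) and 91.5 CPM (64.1 to 127), all above the Fcgr4-high MHCII-low MØs. Trf overlaps the gene model Gm20425 on the same strand, and reads in the shared part could be lost or assigned to either. At a fixed depth of 1500 UMIs a cell, which every cell reached, 69.5% of obese and 84.9% of CR Resident MØs held a Trf UMI against 5.40% and 5.08% of T/NK/ILC cells. Without thinning, at median depths of 6165 and 6221 UMIs in Resident MØs and 3379 and 2692 in T/NK/ILC cells, the shares were 93.7% and 100% against 12.2% and 10.9%.

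Slc11a1 (chr1:74375195-74386062), the phagosomal metal transporter NRAMP1 that moves iron out of digested material, had a different order. It was highest in lipid-associated MØs, at 264 (254 to 275) and 271 CPM (245 to 299), and in Fcgr4-high MHCII-low MØs, at 265 (232 to 302) and 257 CPM (239 to 275), and these classes overlapped in both libraries. Resident MØs had 116 (102 to 130) and 139 CPM (104 to 182), and the log2 ratio of Resident to lipid-associated MØs was -1.16 in the obese (-1.38 to -1.01) and -0.94 in the CR library (-1.40 to -0.54). C1q MØs lay between at 189 and 185 CPM. T/NK/ILC cells had 17.1 and 8.34 CPM. Over the 7 classes with a ratio, the log2 ratio between libraries lay between -0.25 and 0.26. In the Fcgr4-high MHCII-positive MØs, too few in CR for a ratio, Slc11a1 was at 117 (86.9 to 155) and 209 CPM (158 to 271).

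Cd163 (chr6:124304656-124330527), the scavenger receptor for haemoglobin bound to haptoglobin, was sparse and had its highest level in Resident MØs. These had 53.8 CPM (44.7 to 64.2) in the obese library, from 122 UMIs, and 31.5 CPM (16.3 to 55.0) in the CR library, from 12 UMIs. The log2 ratio of -0.69 (-1.76 to 0.08) includes no change, and 1 CR cell held 41.7% of the CR UMIs. Without that cell the CR Resident level was 19.1 CPM. In the CR library the intervals of Resident and C1q MØs overlapped. Of the 64 Cd163 UMIs in the kept CR cells, Resident MØs held 12, C1q MØs 15 and dendritic cells 19, so a concentration in Resident MØs was clear in the obese library alone. All other MØ and monocyte classes had at most 14.3 CPM, and the Fcgr4-high MHCII-low MØs had 0 and 5 UMIs. Dendritic cells, which are no MØs, had 9.97 (7.57 to 12.9) and 8.11 CPM (4.88 to 12.7).

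Slc48a1 (chr15:97778520-97792692), the transporter HRG1 that carries heme out of the phagolysosome, differed 2.91-fold and 2.61-fold from its highest to its lowest MØ or monocyte class in the obese and CR libraries. Lipid-associated MØs had 142 (135 to 150) and 133 CPM (114 to 153), the other MØ classes of at least 50 cells in both libraries had 78.7 to 112 CPM, and patrolling monocytes had 48.9 (33.5 to 69.0) and 58.4 CPM (37.0 to 87.7). In classical monocytes it was 89.7 (76.1 to 105) in the obese and 50.8 CPM (34.3 to 72.5) in the CR library, a log2 ratio of -0.76 (-1.44 to -0.25) that rests on 30 CR UMIs and ranged from -0.94 to -0.22 over the alternatives. The gene overlaps Hdac7 on the opposite strand, and the T/NK/ILC level was 36.9 and 33.9 CPM.

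Hmox1 (chr8:75093621-75100589) encodes heme oxygenase, the enzyme that opens heme and frees its iron, and its highest class was not the same in both libraries. In the obese library Resident MØs were highest with 358 CPM (334 to 384), followed by patrolling monocytes with 289 (249 to 333) and lipid-associated MØs with 285 (274 to 297). In the CR library lipid-associated MØs were highest with 418 CPM (385 to 452), followed by cycling MØs with 234 (198 to 274) and Resident MØs with 215 (171 to 267). Fcgr4-high MHCII-low MØs had 80.9 (62.8 to 103) and 83.0 CPM (73.0 to 94.1), above T/NK/ILC cells at 21.3 (16.6 to 26.9) and 11.3 CPM (6.81 to 17.7). Their log2 ratio to all other MØs was -1.50 (-1.92 to -1.21) and -1.65 (-1.91 to -1.50). The ratio between libraries in this class was 0.04 (-0.35 to 0.45), but -0.70 with halved gate thresholds and -1.36 with classes from clusters.

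The largest difference between libraries was in patrolling monocytes, which had 189 Hmox1 UMIs in 142 obese cells and 25 in 106 CR cells. The levels of 289 and 63.5 CPM (41.1 to 93.8) give a log2 ratio of -2.10 (-2.85 to -1.58), which lay at the 0.104 percentile of the genes measured in that class, and over 13 alternatives the ratio stayed between -2.29 and -1.32. At 1500 UMIs a cell, 20.4% (14.1 to 28.0) of obese and 7.55% (3.31 to 14.3) of CR patrolling monocytes held a UMI, beside 2.44% and 1.32% of T/NK/ILC cells. Without thinning the shares were 41.5% and 17.9%, at median depths of 3917 and 3198 UMIs. The cells in this gate also differed in other markers. The median classical monocyte score was 24.8 UMIs per 10000 in the obese and 0 in the CR patrolling monocytes, and their median Fcgr4-list score was 21.5 and 37.6. Within 20% of the patrolling cut lay 31 of 482 obese and 29 of 307 CR candidates. The part of these differences in the Hmox1 value was not tested.

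Hmox1 UMIs were gathered in few cells, which sets the CR levels of several classes. In CR lipid-associated MØs 1 cell of 146 held 36.4% of the 605 UMIs, and without the top cell of each library the levels were 257 and 270 CPM and the log2 ratio moved from 0.54 to 0.07. In CR cycling MØs 1 cell of 61 held 51.3% of the 150 UMIs, and the ratio moved from 0.94 to 0.28 without the top cells and to -1.13 when classes were taken from clusters. The CR cycling cells also had a median Fcgr4-list score of 52.2 against 7.78 in the obese library, so the cycling class holds a different mix of MØs in each. In Resident MØs, where the top cells held 79 of 812 and 9 of 82 UMIs, the ratio was -0.72 (-1.08 to -0.41) and stayed between -0.96 and -0.44 over 12 alternatives.

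Blvrb (chr7:27447978-27466144), a biliverdin reductase that acts on the product of heme opening, was highest in Resident MØs of both libraries. They had 549 (519 to 581) and 509 CPM (440 to 586), lipid-associated MØs 294 (283 to 305) and 369 (339 to 402), and C1q MØs 223 (212 to 234) and 200 CPM (174 to 229). Fcgr4-high MHCII-low MØs had 147 (123 to 176) and 128 CPM (115 to 141), and monocytes lay between 88.9 and 102 CPM. MØs together exceeded monocytes by a log2 ratio of 1.47 (1.32 to 1.71) in the obese and 1.16 (0.90 to 1.52) in the CR library. Between libraries the largest ratio in a MØ class was 0.33 (0.19 to 0.47), in lipid-associated MØs, and it was 0.11 with clusters as classes.

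The ferritin subunit genes carried most of the signal. Fth1 (chr19:9980598-9985098) encodes the heavy chain, which oxidises iron on entry, and Ftl1 (chr7:45457944-45459884) the light chain, which favours the mineral core. Both were found in at least 99.9% of all kept cells, and together they took 4.11% of all UMIs of obese and 3.93% of those of CR lipid-associated MØs, against 0.567% and 0.603% in T/NK/ILC cells. Ferritin genes have many processed copies in the genome, and Ftl1 overlaps the gene models Gm10252 and Gm22133, so reads that fit several copies may have been lost and the absolute levels are uncertain. Both carry the 5′ UTR hairpin printed above.

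Ftl1 was highest in lipid-associated MØs, at 29296 (29184 to 29408) and 24824 CPM (24568 to 25082), and next in obese Resident MØs with 23554 (23355 to 23755). It was lowest among MØs in the Fcgr4-high MHCII-low class, at 13587 (13339 to 13838) and 13931 CPM (13797 to 14066), and lower still in classical monocytes at 11290 and 10665 CPM. Its ratio between libraries was negative in 7 of 8 classes, with -0.33 in Resident, -0.24 in lipid-associated and -0.42 in cycling MØs (-0.75 with classes from clusters) and -0.57 in haemoglobin-rich cells (0.24 without ribosomal, mitochondrial and haemoglobin genes in the total).

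Fth1 was higher in CR in 6 of 8 classes and lower in patrolling monocytes (-0.10) and haemoglobin-rich cells (-0.25, but 0.56 on the latter total). In Fcgr4-high MHCII-low MØs it was 10960 CPM (10738 to 11186) in the obese and 18151 CPM (17998 to 18305) in the CR library, the highest level of Fth1 in the MØ and monocyte classes. The log2 ratio of 0.73 (0.70 to 0.76) stood at the 97.1 percentile of all genes measured in that class and stayed between 0.66 and 0.80 over 13 alternatives, short of 2-fold in each. Classical monocytes had 6123 (6007 to 6241) and 9049 CPM (8808 to 9294), a ratio of 0.56 (0.52 to 0.61) with a range of 0.41 to 0.56. Lipid-associated MØs had 11792 and 14520 CPM, but the ratio of 0.30 came down to 0.03 without the filter on mitochondrial share and UMIs, with 322 in place of 146 CR cells in that class. Resident MØs had 8398 and 8500 CPM, a ratio of 0.02 that kept its sign in 7 of 12 alternatives.

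The balance of heavy to light chain transcripts does not depend on the scaling of the libraries. In the Fcgr4-high MHCII-low MØs the ratio of Fth1 to Ftl1 UMIs was 0.807 (0.785 to 0.829) in the obese and 1.30 (1.29 to 1.32) in the CR library, where this class alone among the MØ, monocyte and haemoglobin-rich classes had more Fth1 than Ftl1 UMIs. In lipid-associated MØs it was 0.403 (0.400 to 0.405) and 0.585 (0.575 to 0.595), in classical monocytes 0.542 (0.530 to 0.555) and 0.848 (0.818 to 0.880), and in Resident MØs 0.357 (0.351 to 0.363) and 0.453 (0.434 to 0.472). The CR value was the higher in 8 of these 9 classes, and in 8 of 9 also with halved or doubled gate thresholds, without the filters and with thinned cells. Patrolling monocytes were the exception, at 0.580 (0.559 to 0.601) and 0.553 (0.527 to 0.581). Other cells had 0.845 (0.821 to 0.869) and 0.861 (0.828 to 0.895) in the T/NK/ILC class, 0.640 and 0.696 in dendritic cells and 0.782 and 0.819 in stromal cells. A higher CR value was not particular to MØs, since B and plasma cells had 0.759 (0.729 to 0.790) and 0.976 (0.931 to 1.02), and the 13 and 16 granulocytes or mast cells had 0.516 (0.467 to 0.571) and 0.993 (0.891 to 1.11).

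**Figure D2:**
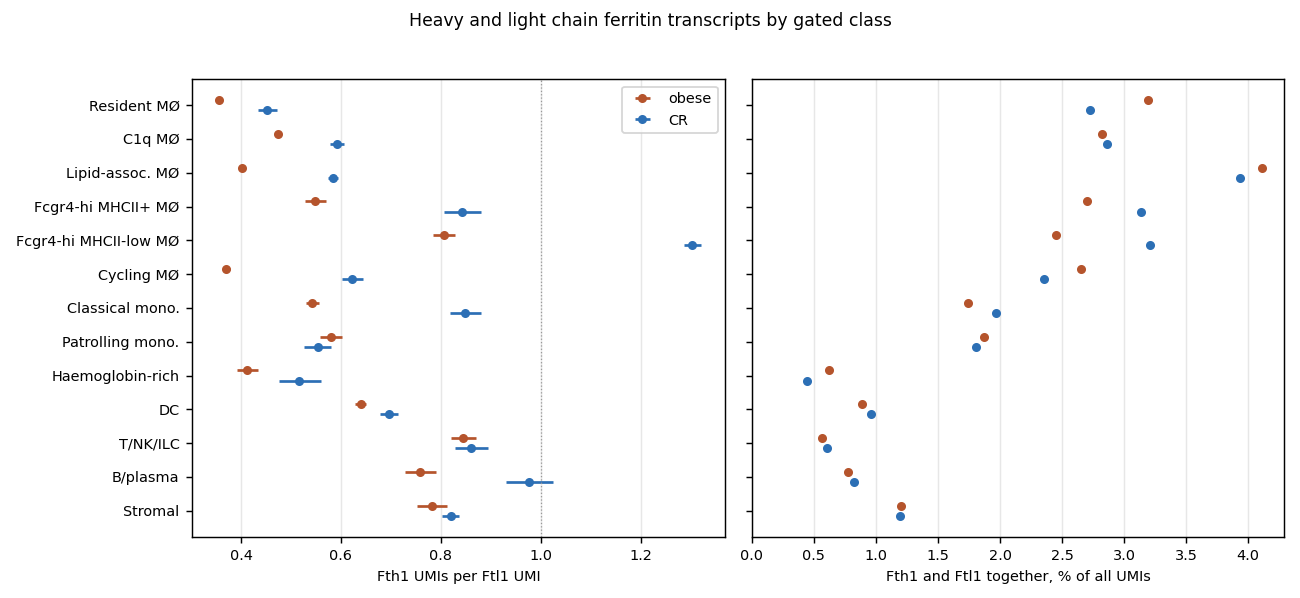
Fth1 UMIs per Ftl1 UMI by class with 95% counting intervals (left) and both genes together as a percent of all UMIs (right), in the obese and CR libraries. In the left panel the CR point lies to the right of the obese point in every MØ class, in classical monocytes and in haemoglobin-rich cells. The CR point passes 1 in the Fcgr4-high MHCII-low MØs.

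Slc40a1 (chr1:45908068-45926523) encodes ferroportin, the known iron exporter of animal cells, and carries the 5′ UTR hairpin printed above. Its transcript was rare and uneven. There were 151 UMIs in all kept obese and 106 in all kept CR cells. Resident MØs, with 5.63% and 2.17% of all UMIs, held 43.0% (35.0 to 51.3) and 36.8% (27.6 to 46.7) of the Slc40a1 UMIs. Their level was 28.7 CPM (22.1 to 36.5) in the obese library and 102 CPM (72.8 to 140) in the CR library, from 65 and 39 UMIs, and the log2 ratio was 1.67 (1.22 to 2.43), the 99.7 percentile of the genes measured in Resident MØs. Slc40a1 met the minimum of 50 CPM for a ratio through the CR library alone. A UMI was present in 36 of 348 obese and 14 of 53 CR cells. At 1500 UMIs a cell the shares were 3.74% (2.00 to 6.30) and 9.43% (3.13 to 20.7), whose intervals overlap. A single CR cell held 25.6% of the CR UMIs, and without the top cell of each library the ratio was 1.42. It was 0.82, under 2-fold, with classes from clusters and 1.86 without the filters.

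Outside Resident MØs the levels of ferroportin transcript were lower. Lipid-associated MØs had 5.45 (4.03 to 7.21) and 8.98 CPM (4.78 to 15.4), and as a larger class they held 32.5% (25.1 to 40.5) and 12.3% (6.69 to 20.1) of the Slc40a1 UMIs. C1q MØs had 1.65 (0.85 to 2.88) and 8.55 CPM (3.91 to 16.2) and Fcgr4-high MHCII-low MØs 0 and 4 UMIs. Classical monocytes had 0 UMIs in the obese and 7 in the CR library, of which 1 cell held 6. T/NK/ILC cells had 2 and 1 UMIs and stromal cells 9.42 (4.07 to 18.6) and 5.97 CPM (3.59 to 9.32), the latter with 17.9% (11.2 to 26.6) of the CR UMIs. The log2 ratio of Resident to lipid-associated MØs was 1.69 in the obese and 2.94 in the CR library, and with no added pseudocount the intervals of the count ratio were 1.84 to 2.96 and 2.57 to 4.54.

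Counted over all members, 55 pairs of member and class could be given a ratio between libraries, and 3 of them passed 2-fold: Slc40a1 in Resident MØs, higher in CR, and Hmox1 in patrolling monocytes and Trf in haemoglobin-rich cells, lower in CR. Slc40a1 in Resident MØs (28.7 and 102 CPM) and Trf in haemoglobin-rich cells (59.7 and 18.7 CPM) met the 50 CPM minimum only in their higher library. A gene that enters in this way is more likely to pass 2-fold, and the same minimum was applied to all measured genes. Every ratio uses an added 5 CPM in each library, and its interval is that of the plain count ratio. In Resident MØs 1 of 9 measured members passed, where 1.75% of all measured genes did. In C1q MØs 0 of 7 passed (1.45% of all measured genes), in lipid-associated MØs 0 of 7 (1.94%), in Fcgr4-high MHCII-low MØs 0 of 6 (2.37%), in cycling MØs 0 of 7 (6.9%) and in classical monocytes 0 of 7 (4.38%). In patrolling monocytes 1 of 7 passed (5.26%). The median ratio of the measured members lay between -0.17 and 0.28 in these 7 classes, beside medians of all measured genes between -0.01 and 0.12.

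**Figure D3:**
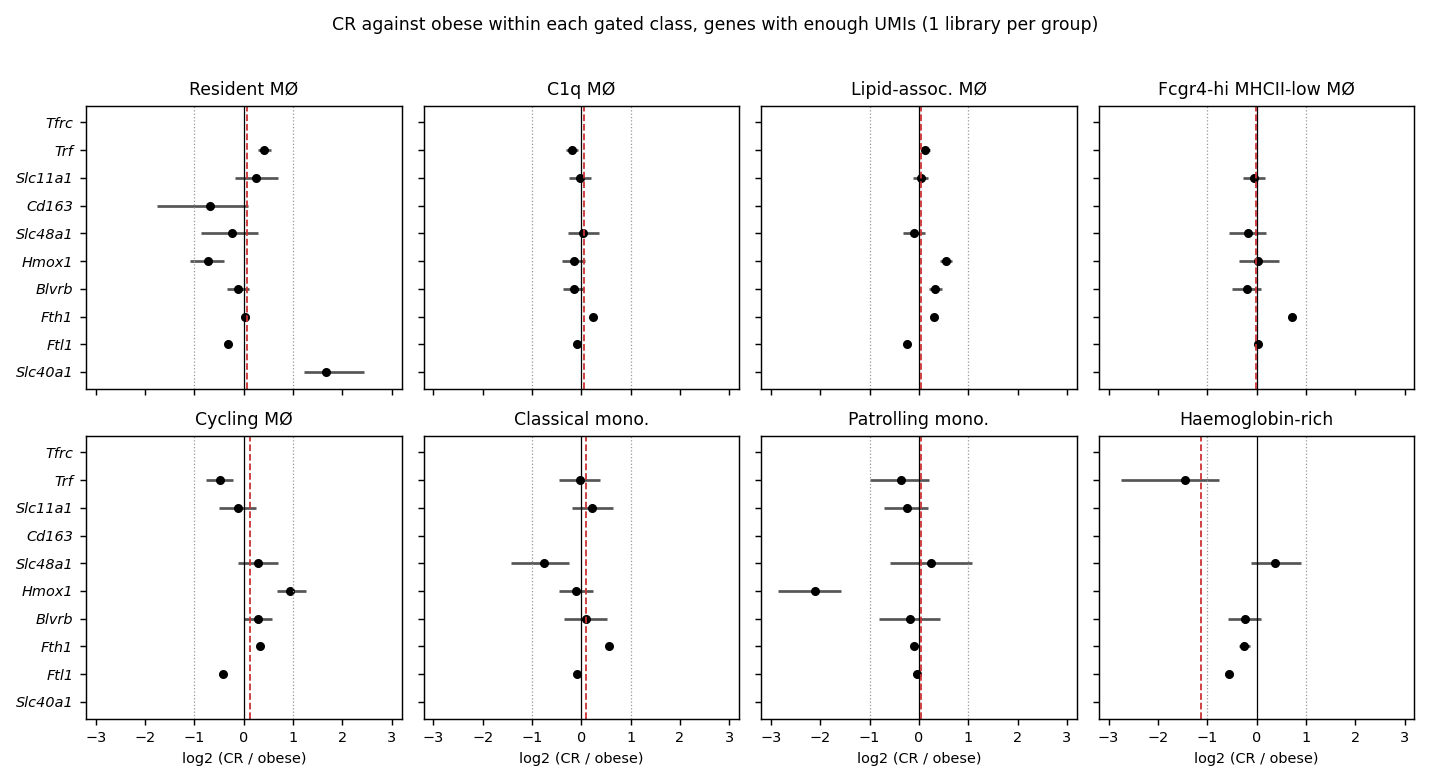
Log2 ratio of CR to obese level for each measured member in each class, with the exact 95% interval of the count ratio, a dashed line at the median of all genes measured in the class and dotted lines at 2-fold. Outside haemoglobin-rich cells, Slc40a1 in Resident MØs at 1.67 and Hmox1 in patrolling monocytes at -2.10 are the members past the dotted lines.

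The haemoglobin-rich cells need separate reading. The study names such a population Heme MØs, but the cells gated here on haemoglobin (at least 10% of UMIs) carried some genes of red cell precursors and had lower levels of MØ genes than the MØs. Haemoglobin took a median of 91.8% of the UMIs of an obese and 91.5% of those of a CR cell. Alas2, the first enzyme of heme synthesis in red cells, had 2013 (1935 to 2093) and 2266 CPM (2146 to 2391) there, against 0.772 and 1.63 CPM in all MØs, and Slc25a37, which carries iron into the mitochondria, 80.7 (65.7 to 98.2) and 83.3 CPM (61.6 to 110) against 19.7 and 18.4. Other genes of the red cell list, named here after their values were seen, differed among themselves. Bpgm had 1055 and 1131 CPM against 6.77 and 9.77 in all MØs, but the erythropoietin receptor gene Epor had 0 and 1 UMIs, Klf1 2 and 4, Car1 5 and 0 and Ermap 0 and 7. The MØ list reached 10 or more UMIs in 17 and 5 cells, Ptprc in 32.8% and 10.7% of cells, and C1qb had 447 and 264 CPM, or 1835 and 2080 CPM with haemoglobin left out of the total, against 5459 and 5218 in all MØs. The cells are therefore called by their haemoglobin content here, and outside them haemoglobin took 432 and 490 CPM in the kept cells of each library.

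In these cells Hmox1 had 19.4 (12.4 to 28.8) and 8.50 CPM (2.76 to 19.8), and Slc40a1 had no UMI, which allows up to 2.98 and 6.27 CPM. Blvrb, which is also known as a red cell enzyme, had 223 (197 to 251) and 189 CPM (155 to 227), and Slc48a1 71.9 (57.7 to 88.4) and 95.2 CPM (71.9 to 124). Since haemoglobin fills most of the total, these were also taken as CPM of the UMIs other than haemoglobin. On that scale Blvrb was 914 (809 to 1029) and 1490 (1225 to 1794), and Slc48a1 295 (237 to 363) and 751 (568 to 976), both above their levels in all MØs, which were 276 and 222 CPM for Blvrb and 113 and 97.6 CPM for Slc48a1. Hmox1 was 79.5 (50.9 to 118) and 67.1 (21.8 to 157) on that scale, below the 232 and 188 CPM of all MØs. These values lay above the T/NK/ILC levels given earlier, but the 19.4 and 8.50 CPM over all UMIs did not. The CR value rests on 5 UMIs. With all cells thinned to the same depth, 3.125% and 1.33% of haemoglobin-rich cells held a Hmox1 UMI, beside 2.44% and 1.32% of T/NK/ILC cells. A Hmox1 level above that of lymphocytes was therefore not shown for these cells. On the scale without haemoglobin, Blvrb and Slc48a1 stayed above the MØ level once the cells with 10 or more MØ-list UMIs were left out. The levels were then 1076 and 1936 for Blvrb and 350 and 906 for Slc48a1. Fth1 and Ftl1 were 7406 and 17935 on that scale in the obese and 12010 and 23255 in the CR cells.

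In this class 1 of 5 measured members passed 2-fold between libraries, but 59.7% of all measured genes did, with a median log2 ratio of -1.13, as haemoglobin took 75.6% of the summed UMIs in the obese and 87.3% in the CR library. The member was Trf, at 59.7 (46.9 to 75.0) and 18.7 CPM (9.34 to 33.5) and a ratio of -1.45, measured through its obese level alone. The MØ list moved with it, at 1210 and 605 CPM in all haemoglobin-rich cells and 301 and 318 CPM once cells with 10 or more of its UMIs were left out, where the Trf ratio was -0.75.

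**Figure D4:**
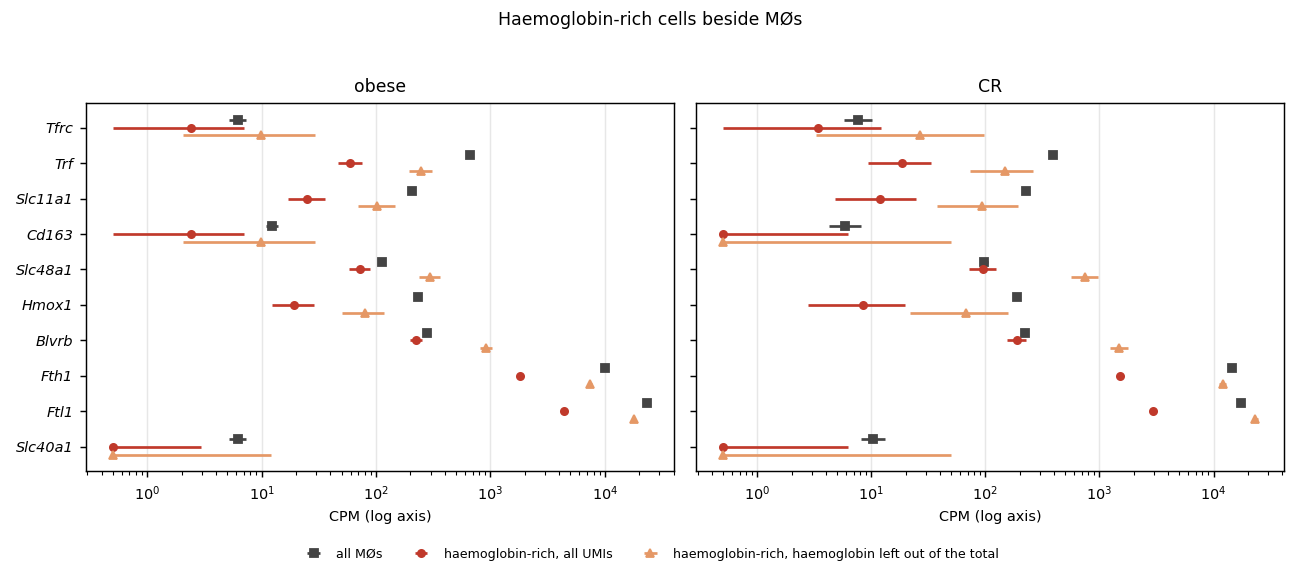
Levels of the 10 genes (CPM, log axis, values of 0 drawn at 0.5 CPM) in all MØs (squares) and in haemoglobin-rich cells over all UMIs (circles) and over the UMIs other than haemoglobin (triangles), obese left and CR right, with exact 95% Poisson intervals. Slc40a1 has no UMI in haemoglobin-rich cells, and Slc48a1 and Blvrb have higher levels there than in all MØs on the scale without haemoglobin.

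Which cells held the transcripts depended on class sizes as well as levels. In the obese library lipid-associated MØs held 41.6% of the Slc11a1, 39.5% of the Ftl1, 37.9% of the Hmox1 and 36.0% of the Trf UMIs, with 22.3% of all UMIs. In the CR library Fcgr4-high MHCII-low MØs, with 16.8% of all UMIs, held 37.4% of the Slc11a1 and 34.2% of the Fth1 UMIs, and lipid-associated MØs, with 8.23%, still held 34.6% of the Hmox1 UMIs. The Hmox1 share includes the single cell described above. These shares say where a transcript was counted in these 2 libraries and move with how many cells of a class each library caught and the filter kept.

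**Figure D5:**
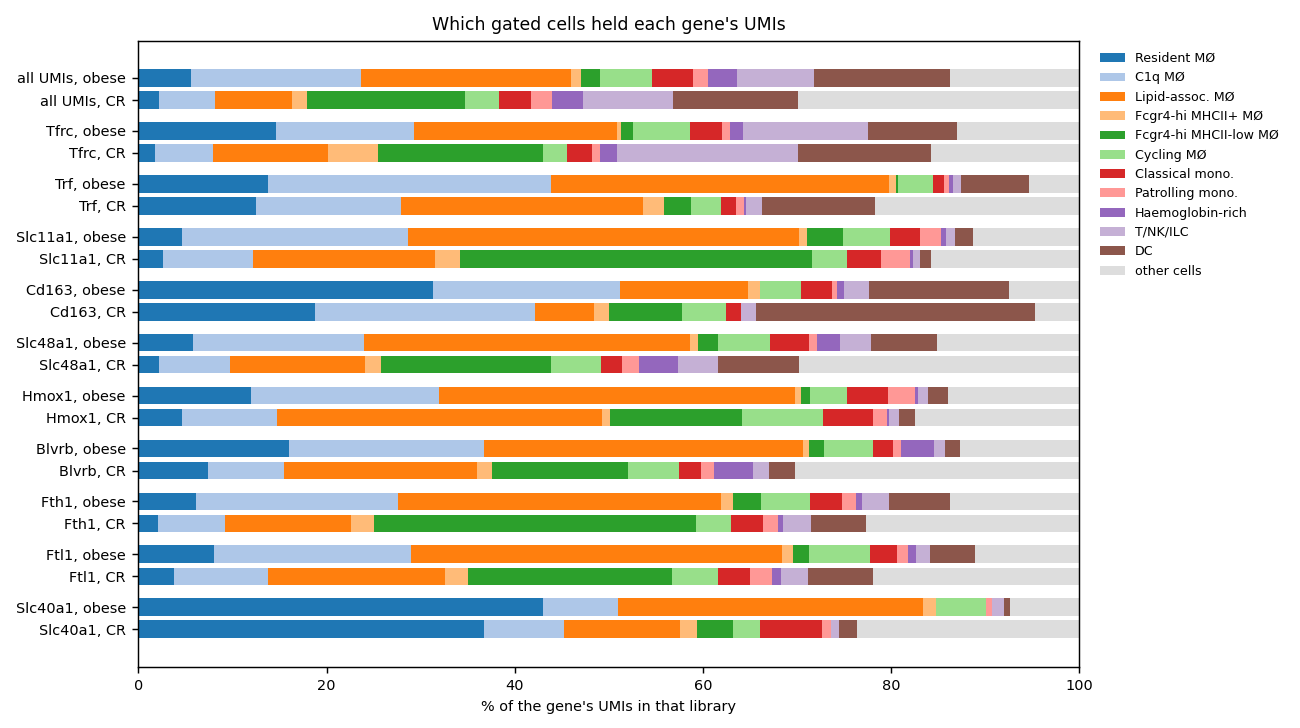
Percent of each gene's UMIs held by each class (stacked bars, 1 bar per gene and library, classes as coloured segments), with the split of all UMIs in the top bars. Resident MØs hold 43.0% and 36.8% of the Slc40a1 UMIs beside 5.63% and 2.17% of all UMIs, and Fcgr4-high MHCII-low MØs hold 34.2% of the Fth1 UMIs of the CR library.

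Around the 10 genes, a list of 59 other genes of iron, heme and the linked oxidant response was followed, of which 57 were in the files. Resident MØs had 12 measured list genes and Fcgr4-high MHCII-low MØs 10, with none past 2-fold in either class. In lipid-associated MØs 3 of 16 were past 2-fold, all higher in CR, where 1.78% of all measured genes were higher and 0.159% lower. These were Hp, which encodes the haemoglobin-binding protein haptoglobin, at 8.68 and 79.4 CPM (78 and 115 UMIs), Slc7a11, the cystine importer, at 17.5 and 51.1 CPM, and Gclm, a subunit of the enzyme that starts glutathione synthesis, at 49.5 and 110 CPM. Slc7a11 was also past 2-fold in C1q MØs, at 15.5 and 54.2 CPM (1 of 14 list genes). Of all measured genes in C1q MØs, 1.21% were past 2-fold higher in CR and 0.242% lower. Gclm was past 2-fold in cycling MØs, at 29.2 and 96.5 CPM (1 of 14). There 5.58% of all measured genes were higher and 1.32% lower.

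Classical monocytes had 3 of 16 list genes past 2-fold, again all higher in CR, beside 2.80% of all measured genes. Slc7a11 was at 58.4 and 149 CPM, Fbxl5, the iron-sensing subunit of a ubiquitin ligase, at 48.6 and 113 CPM, and Hp at 350 and 723 CPM. Hp was named on the classical monocyte marker list but was left out of the score that chose the cells. In patrolling monocytes 2 of 15 list genes were past 2-fold, where 3.63% of all measured genes were higher and 1.63% lower. Keap1, the repressor of the oxidant response, was higher in CR at 18.3 and 55.9 CPM. Lrp1, which takes up heme bound to hemopexin, was lower at 144 and 61.0 CPM. The median ratio of the list was 0.19 in lipid-associated MØs, 0.36 in classical monocytes, 0.35 in cycling MØs and -0.07 in Fcgr4-high MHCII-low MØs, beside medians of all measured genes of 0.04, 0.10, 0.12 and -0.01.

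Across the sums of 8 classes in the 2 libraries, with haemoglobin-rich cells left out, each member was set beside all genes by the Pearson correlation of log2(CPM + 10) over 16 points that share cells' library and depth. Trf was most like Apoe (0.97), Sepp1 (0.97) and Lgmn (0.94), all known as products of mature MØs. Blvrb was most like Folr2 (0.98), a Resident MØ marker used in the gate, and Cd163 like Mgl2 (0.93). Ftl1 was most like the lysosomal membrane gene Cd63 (0.94), and Hmox1 like Chmp6 (0.85) and Hgsnat (0.82). Among the members themselves Trf went with Blvrb (0.83) and Ftl1 (0.80) but not with Fth1 (0.03), and Fth1 went with Slc11a1 (0.69).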

How the data were processed

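Droplet 3′ libraries (10x Genomics) of sorted live CD45+ cells were read by the authors with Cell Ranger against mm10, and the deposited matrices hold raw UMI counts for each gene and barcode, with 42948242 counts in the obese and 19696476 in the CR library. The study's own analysis used Seurat. Cells with at least 200 genes, and with mitochondrial share and UMIs within 3 scaled MADs above the library median, were kept. Classes were gated on summed marker UMIs per 10000, with thresholds set after seeing the marker distributions but never the member values. Cells with markers of several lineages were set aside as mixed, and no doublet caller was run. The members, lists and tests were chosen with earlier results of these data known. Counts were summed by class and library. Ratios were given for classes of at least 50 cells in both libraries and genes with 20 UMIs in both together and 50 CPM in 1, with 5 CPM added, and a gene past 2-fold was counted. All 10 members were named in every class, list genes where past 2-fold, and for likeness up to 3 genes a member. Hairpins were read from GENCODE transcripts on GRCm38. Scripts (Python 3.11.15, numpy 2.4.6, scipy 1.17.1, pandas 2.3.3, scikit-learn 1.9.0, python-igraph 0.11.9, matplotlib 3.10.9, and edgeR 4.0.16 for TMM factors alone) were tested on simulated counts, in which 99% to 100% of 200 genes changed 4-fold were called in each class. Alternatives were other filters, gate thresholds, clusters, depths, scalings and pseudocounts. Leaving out the top cell of each library, leaving out haemoglobin-rich cells with MØ transcripts, and the count of members under further scalings were added after seeing the data. The pathway list in haemoglobin-rich cells is not reported here. Intervals cover counting error alone.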

Additional observations from a re-analysis of the deposited data

How the results depend on the processing

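No paired analysis was possible because each group is 1 library. Of the 55 pairs of member and class with a ratio, 630 values under other settings were compared, of which 480 lay inside and 150 outside the counting interval of the reported value, and no ratio past 2-fold changed sign. The count of 3 pairs past 2-fold was 5 with classes from clusters, 5 without the filter on low values and 8 at 1.5-fold, and it was 2 to 4 under the other settings. With clusters the 5 were 2 in Fcgr4-high MHCII-low MØs, 1 in cycling MØs and 2 in patrolling monocytes, so that Hmox1 in patrolling monocytes (-1.38) was among them and Slc40a1 in Resident MØs (0.82) was not. Trf in haemoglobin-rich cells was not counted with clusters, because its 39.9 and 17.4 CPM lay under the minimum of 50 CPM in 1 library. The 11 pairs of pathway list gene and class past 2-fold became 40 without the filter on low values, since this adds genes of few UMIs. The log2 TMM factors of CR and obese classes, which are subtracted from every ratio of a class, were -0.05 to 0.25 outside haemoglobin-rich cells and -0.63 within them. With doubled thresholds Resident and cycling MØs, and with halved thresholds classical monocytes, held too few CR cells for a ratio, and clusters gave too few C1q MØs. The causes were not tested. Depth limits Tfrc, Cd163 and Slc40a1, which have at most 389 UMIs a library, so their absence from a class was not detectable rather than shown.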
